A study of Mus musculus with 18 samples.

Results

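Avpi1 (arginine vasopressin-induced 1, also called VIT32) was followed through RNA sequencing of mpkCCD cells, a mouse line immortalised from the kidney's cortical collecting duct that keeps properties of its principal cells. It is 1 of 24111 genes in the count table, and it was chosen by its symbol with earlier results of these libraries known. Its values in dDAVP against control and its relation to Aqp2 belong to that choice and are given as a description without a test. Cells had either received dDAVP, the V2 receptor agonist desmopressin, at 0.1 nM for 24 h in serum-free medium, 9 libraries, or the same medium without it, 9 libraries. Both groups came from the clone mpkCCD11 on permeable supports, had been in serum-free medium for 24 h beforehand, and before that had grown with dexamethasone, insulin and epidermal growth factor. The libraries are numbered 1 to 9 in each group and fall into 3 sets of 6 by number (1 to 3, 4 to 6 and 7 to 9), which the labels do not explain.

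Vasopressin acts on principal cells through the V2 receptor, Gs, cAMP and protein kinase A, which moves the water channel aquaporin-2 to the apical membrane and raises transcription of its gene, Aqp2. Avpi1 was identified as a transcript that vasopressin raises in a mouse collecting duct line. In Xenopus oocytes its product activated the MAP kinases ERK and lowered the current through the epithelial sodium channel, ENaC, the channel through which principal cells take up sodium.

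In GENCODE M21 on GRCm38 (mm10), Avpi1 (ENSMUSG00000018821.3) lies on the minus strand of chromosome 19 at chr19:42123273-42129059 and has 2 annotated transcripts. The longer, Avpi1-201, has 3 exons and 1044 bases. Exon 1 (42128871 to 42129059) holds no coding sequence. Exon 2 (42124748 to 42125026) and exon 3 (42123273 to 42123848) hold the coding sequence of 142 codons. The deposited counts and FPKM values together imply a counted length of 976 bases. RefSeq places 0 other genes over Avpi1, so no annotated antisense gene shares its reads. Aqp2, the comparison gene, lies on the plus strand at chr15:99579055-99584547. The upstream sequences of the pair are shown because dDAVP raises cAMP and both genes are known as vasopressin targets, so the letters of a cAMP response element can be looked for. Each is 184 bases of RefSeq sequence (GRCm38.p6), from base 250 to base 67 before the gene's RefSeq start, 5' to 3' on the gene's strand, at chr19:42129060-42129243 for Avpi1 and chr15:99578806-99578989 for Aqp2. Capitals mark a CCAAT box on the opposite strand (read as ATTGG) in Avpi1 and the letters TGACG on the opposite strand (read as CGTCA) in Aqp2.
Avpi1: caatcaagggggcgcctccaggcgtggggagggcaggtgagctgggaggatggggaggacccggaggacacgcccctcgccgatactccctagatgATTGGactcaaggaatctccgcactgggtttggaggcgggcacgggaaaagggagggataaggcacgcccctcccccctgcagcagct
Aqp2: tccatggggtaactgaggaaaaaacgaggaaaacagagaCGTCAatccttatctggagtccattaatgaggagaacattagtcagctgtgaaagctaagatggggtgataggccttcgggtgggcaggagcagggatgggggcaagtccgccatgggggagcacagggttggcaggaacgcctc
The Avpi1 window held 65.8% G and C, against 53.8% in Aqp2 and a median of 51.1% over 32851 RefSeq windows of the same length, of which 13.3% held more than Avpi1. Both strands of each window were searched for 6 motifs. The cAMP response element TGACGTCA was in neither window and in 0.6% of all windows. Its shorter core TGACG was in the Aqp2 window only, at -211 to -207 from the start, and in 11% of all windows. CCAAT was in the Avpi1 window only, at -154 to -150 from the start, and in 25.7% of all windows. Neither window held the AP-1 site TGANTCA (5.0% of windows), the GC box GGGCGG (21.7%) or the ETS core CCGGAA (7.1%). The core letters also lie within the full element. A match says only that the letters are there, and letters outside these bases were not searched.

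Library totals lay between 22.2 and 105.9 M counts. TMM factors, which scale each library to the bulk of its genes, spread from 0.306 (dDAVP library 6) to 3.165 (dDAVP library 8), so Avpi1 is given both as TMM-normalised CPM (CPM computed on the TMM-scaled total of each library) and by plain library totals. More genes passed between sets of numbers than between treatments. Of 10121 genes, 55.9%, 63.7% and 48.2% passed edgeR at adjusted p under 0.05 in the contrasts of sets 4 to 6 and 1 to 3, 7 to 9 and 1 to 3, and 7 to 9 and 4 to 6, and 0.079% did for dDAVP with the set as a term. Of the markers of the labelled cell type, Aqp2 (10.9 to 2764 normalised CPM) and Avpr2 were present, Aqp3 had a median of 0.151 normalised CPM, and Aqp4 and Elf5 stayed at or near 0. Endothelial Pecam1, Cdh5 and Kdr were at 0 in every library and fibroblast markers summed to at most 0.181 normalised CPM in dDAVP and 1.09 in control libraries. Intercalated cell markers summed to at most 23.2 in dDAVP and 15.1 in control libraries, and proximal tubule markers to at most 10.9 and 8.23, with Slc5a2 at 0 throughout. Thick ascending limb and distal tubule markers (5 genes, Umod and Slc12a3 among them) summed to 47.1 and 39.5 in dDAVP libraries 2 and 3 and to at most 0.767 in the other dDAVP and 1.33 in control libraries.

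Avpi1 was higher in every dDAVP library than in every control library of replicates 1 to 3. As in any bulk RNA, more cells with the transcript and more transcript in each cell cannot be told apart. It was higher with dDAVP by a smaller margin in replicates 4 to 6. The highest levels of the series stood, within replicates 7 to 9, in 1 dDAVP and 2 control libraries. The group means over all 9 numbers therefore lay close together, 152 ± 199 normalised CPM in dDAVP and 164 ± 255 in control libraries (SD, n = 9 each). The medians were 57.5 normalised CPM in dDAVP libraries (28.2 to 649.5) and 48.9 in control libraries (15.9 to 713). Counting error was small beside this spread: the 235 to 89543 reads behind each value gave 95% half-widths of 0.656% to 13.0%, which cover counting error only.

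In replicates 1 to 3, Avpi1 had 134, 189 and 203 normalised CPM in dDAVP libraries 1, 2 and 3, against 44.5, 52.9 and 48.9 in control libraries 1, 2 and 3. The lowest dDAVP library stood above the highest control library by more than the range of either group. The means were 175.5 ± 36.4 normalised CPM with dDAVP and 48.8 ± 4.22 in control (SD, n = 3 each), a ratio of 3.60. By deposited FPKM, which are scaled by library totals and gene length, the means were 135 ± 9.87 with dDAVP and 38.6 ± 6.50 in control, a ratio of 3.51. Of these libraries, dDAVP 2 and 3 were those with markers of the thick ascending limb and distal tubule. They had the higher Avpi1 values of their group by normalised CPM. By FPKM, Avpi1 had 135, 125 and 145 in dDAVP libraries 1, 2 and 3, so library 2 was the lowest. The markers summed to 0.0458 normalised CPM in dDAVP library 1, and their part in the Avpi1 values was not tested. The edgeR log2 fold change was 1.76 (SE 0.23), the 46th highest of 8991 genes fitted, where the median gene had -0.01. In the same libraries 0.456% of the genes were called (41, of which 34 were higher and 7 lower), 101 were called with the replicate block, and the gene was chosen on this contrast.

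Within replicates 4 to 6, Avpi1 had 31.6, 42.8 and 28.2 normalised CPM in dDAVP libraries 4, 5 and 6, against 18.7, 15.9 and 19.8 in control libraries 4, 5 and 6. The groups did not overlap on this scale. How many of all genes separate in this way was not counted, for this set or for replicates 1 to 3. The means were 34.2 ± 7.65 with dDAVP and 18.1 ± 1.98 in control (SD, n = 3 each). By library totals the groups did overlap. The dDAVP libraries 4, 5 and 6 then held 20.7, 42.0 and 8.61 CPM and the control libraries 10.2, 19.5 and 18.3 CPM, so that dDAVP library 6 was the lowest of the 6. The difference between the scales lies in that library's TMM factor of 0.306. The edgeR log2 fold change was 0.86 (SE 0.45) with TMM, where the median gene had -0.03 and 17.3% of genes had a higher value. With library totals it was 0.57, where the median gene had -0.38. edgeR called 0 of 10387 genes in this set (0%), with 479 at an unadjusted p under 0.05. DESeq2 called 29 and limma voom 0.

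Within replicates 7 to 9, Avpi1 had 649.5, 31.3 and 57.5 normalised CPM in dDAVP libraries 7, 8 and 9, against 71.5, 488 and 713 in control libraries 7, 8 and 9. By library totals these were 845, 98.7 and 158 CPM with dDAVP, against 165.5, 652 and 823 CPM in control. High values (dDAVP 7, control 8 and control 9) and low values (dDAVP 8, dDAVP 9 and control 7) occurred in both groups. The labels do not say why, and whether labels or columns of this set were exchanged was not tested. Aqp2 stood at 2764, 175 and 193 normalised CPM in dDAVP libraries 7, 8 and 9, against 10.9, 37.3 and 252 in control libraries 7, 8 and 9, higher with dDAVP in numbers 7 and 8 and lower in number 9 (ratio 0.764). The means were 246 ± 350 with dDAVP and 424 ± 326 in control (SD, n = 3 each), with a log2 fold change of -0.83 (SE 1.15) from edgeR, where the median gene had -0.03. Without dDAVP library 7 the estimate was -3.31, and without control library 9 it was -0.16. With replicate numbers as a block it was -2.31 (SE 1.97). edgeR called 0 of 11367 genes in this set (0%), with 590 at an unadjusted p under 0.05. DESeq2 called 94 (0.827%), limma voom 0, and edgeR with the block 3 (0.0264%). Library by library, the ratio of dDAVP to control by normalised CPM was 3.02, 3.57 and 4.15 for numbers 1 to 3. It was 1.69, 2.68 and 1.42 for numbers 4 to 6, then 9.09, 0.0642 and 0.0806 for numbers 7 to 9. By library totals the ratio was 5.11, 0.151 and 0.192 for numbers 7 to 9. Avpi1 was thus higher with dDAVP in 7 of 9 numbers by normalised CPM and in 6 of 9 by library totals. The difference was number 6, with a ratio of 0.471 by library totals. The labels give no pairing beyond the shared number. Deviations of libraries of a number correlated at only -0.71 to 0.43 across genes once set means were removed. The counts by number are therefore a description.

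**Figure D1:**
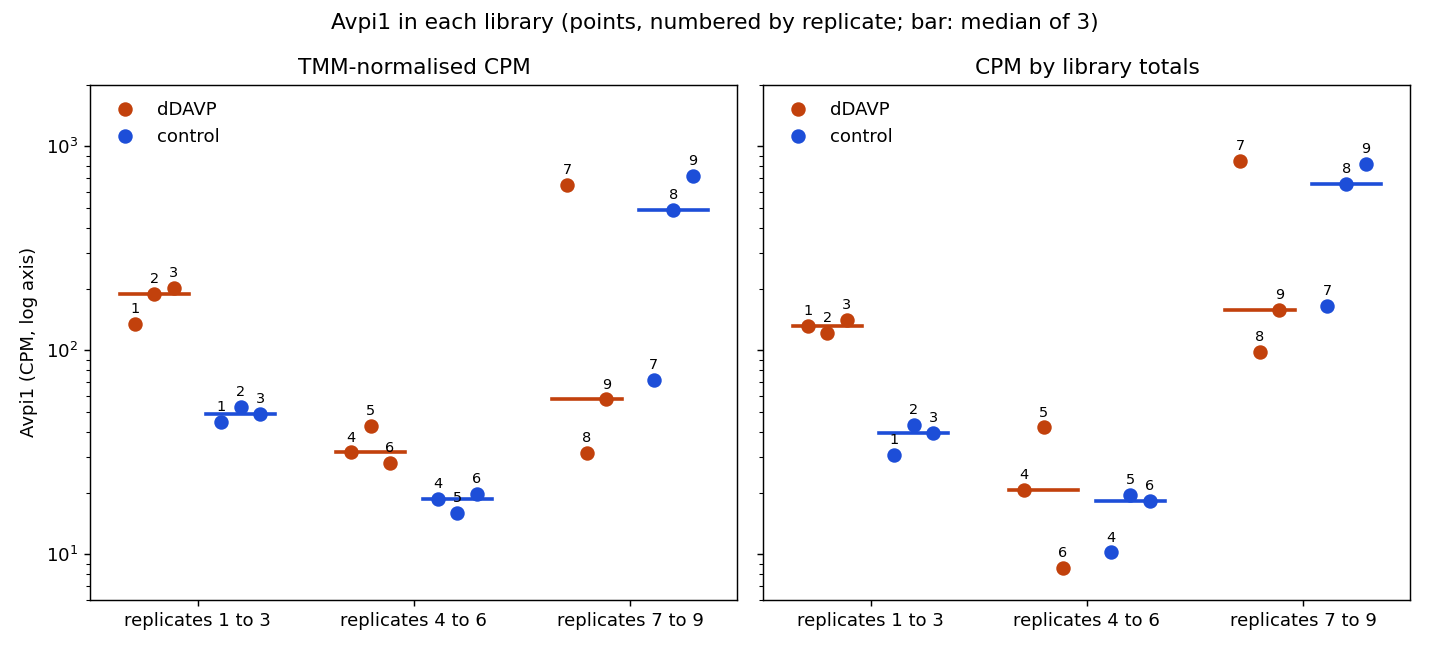
Avpi1 in each of the 18 libraries, as TMM-normalised CPM (left) and CPM by library totals (right), on a log axis, with points numbered by replicate and a bar at the median of 3. In replicates 1 to 3 all dDAVP points lie above all control points, in replicates 4 to 6 this holds on the left only, and in replicates 7 to 9 dDAVP library 7 and control libraries 8 and 9 stand above the rest.

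Over all 18 libraries the edgeR log2 fold change was -0.11 (SE 0.84), near that of the median gene (0.05). This estimate changed sign with the way the libraries were combined. It was 0.67 (SE 0.53) with the set as a term, 0.78 (SE 0.70) with the replicate number as a block, and 1.62 (SE 0.62) in the 12 libraries without numbers 7 to 9. In the fit without covariates edgeR called 0 of 10121 genes (0%), with 218 at an unadjusted p under 0.05, while DESeq2 called 12 (0.119%), limma voom 1 (0.00988%) and edgeR with the block 1 (0.00988%). With the set as a term edgeR called 8 genes, all higher with dDAVP, and with the block 1 (0.00988%). DESeq2 called 31 in that fit (25 higher, 6 lower) and limma voom 10 (0.0988%; 6 higher, 4 lower).

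**Figure D2:**
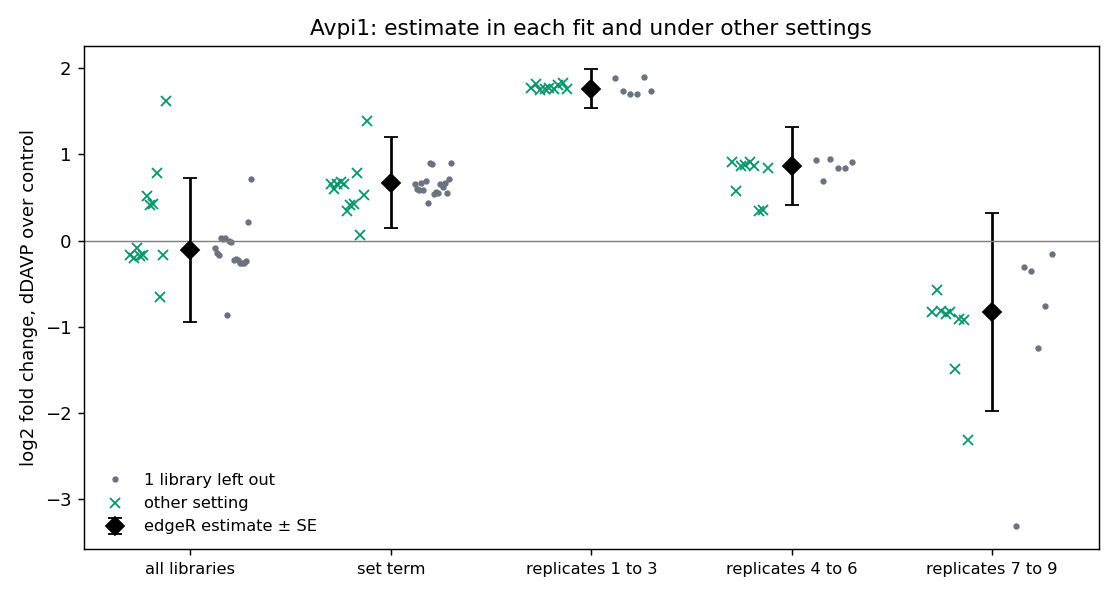
Log2 fold change of Avpi1, dDAVP over control, in the 5 fits, with diamonds for the edgeR estimate and bars for its SE, crosses for other settings and grey dots for fits with 1 library left out. The estimates in replicates 1 to 3 stay between 1.70 and 1.89 when 1 library is left out, and those in replicates 7 to 9 spread between -3.31 and -0.16.

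The level of Avpi1 differed between the sets of numbers. The choice of the gene rested on dDAVP against control within these sets and not on the difference between them. These levels were nevertheless known when the gene was chosen. The sets themselves were known from earlier results of these libraries and are not in the labels. Each is an unexplained group of libraries and not a set of replicates of a known condition. The p-values of the set contrasts and of the permutation tests below therefore describe the spread between libraries. They are no independent support for a difference between conditions. By median normalised CPM the order was control 7 to 9 (488), dDAVP 1 to 3 (189), dDAVP 7 to 9 (57.5), control 1 to 3 (48.9), dDAVP 4 to 6 (31.6) and control 4 to 6 (18.7). The first 4 overlapped in range with their neighbours in this order. Control 1 to 3 stood apart from dDAVP 4 to 6, and dDAVP 4 to 6 from control 4 to 6. With treatment in the model, Avpi1 was lower in replicates 4 to 6 than in replicates 1 to 3 by edgeR (log2 difference -2.0, SE 0.64, adjusted p = 0.0105), against a median of 0.51 over all genes, of which 21.8% were called lower and 34.1% higher. It was higher in replicates 7 to 9 than in replicates 4 to 6 (3.87, SE 0.69, edgeR adjusted p = 0.000101). In that contrast 1.71% of genes had a larger positive difference and the median gene had 0.31, with 28.1% of genes called higher and 20.1% lower. Replicates 7 to 9 had no common level. Avpi1 had 488 to 713 normalised CPM in dDAVP library 7 and control libraries 8 and 9, and 31.3 to 71.5 in the rest of the set. The value of dDAVP library 8 (31.3) lay within the range of dDAVP 4 to 6 (28.2 to 42.8). The third contrast, replicates 7 to 9 against 1 to 3, gave 1.87 (SE 0.66, edgeR adjusted p = 0.0181, median gene 0.54, 39% of genes called higher and 24.7% lower) but did not hold in all fits. It was 0.92 with limma voom (adjusted p = 0.242) and 1.25 without control library 9 (edgeR adjusted p = 0.0806).

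Two-sided exact permutation tests of log2 (normalised CPM + 1), 6 libraries against 6, gave the same order. The mean log2 level was 4.68 ± 0.52 in replicates 4 to 6 and 6.54 ± 1.01 in replicates 1 to 3 (SD, n = 6 each; exact p = 0.00216, the smallest that 924 regroupings can give; adjusted over the 3 pairs 0.00649). It was 7.47 ± 2.00 in replicates 7 to 9, against 4.68 ± 0.52 in replicates 4 to 6 (exact p = 0.00649, adjusted 0.00974). Replicates 7 to 9 and 1 to 3 did not differ beyond their spread on this scale (0.93, exact p = 0.327), and did by deposited FPKM (2.19, adjusted p = 0.0195 in the exact test). Library totals, which leave out the TMM factors of replicates 7 to 9, moved the median gene of that contrast to 1.92 and Avpi1 to 2.67. By edgeR, no set contrast of Aqp2 passed (log2 differences -0.58, 0.42 and 1.00, adjusted p = 0.534, 0.660 and 0.274).

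Ranked by FPKM within each library, Avpi1 was among the more abundant transcripts throughout. It was 129th of 12718 genes with a value in dDAVP library 7, 175th of 12932 in control library 8 and 158th of 12219 in control library 9. The lowest rank was 1780th of 11680, in control library 4, where 15.2% of genes lay above it.

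Aqp2, the textbook target of vasopressin in these cells, was higher with dDAVP in more of the numbers than Avpi1 was. It had 1050, 2637 and 2424 normalised CPM in dDAVP libraries 1 to 3, against 20.5, 23.2 and 27.9 in control libraries 1 to 3. In replicates 4 to 6 it had 993, 1099 and 162 in dDAVP libraries, against 48.2, 27.4 and 46.3 in control libraries. Aqp2 was higher with dDAVP in 8 of 9 numbers by normalised CPM, all but number 9, and in 9 of 9 by library totals. Its log2 fold change with the set as a term was 4.63 (SE 0.72, edgeR adjusted p = 0.00504). The call was lost without dDAVP library 7 (4.27, adjusted p = 0.0742), without numbers 1 to 3 (3.80, adjusted p = 0.808) and without numbers 4 to 6 (4.90, adjusted p = 0.247), all by edgeR. Blocking by number gave 4.70 (SE 0.86, adjusted p = 0.124). For Avpi1 these were 0.67 (SE 0.53) and 0.78 (SE 0.70).

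The relation of Avpi1 to Aqp2 was close in replicates 1 to 6 and loose in replicates 7 to 9. Correlations of log2 (normalised CPM + 1) are given as a description, since the gene was chosen for this relation and points share their set and the scaling of their library. On this scale the dDAVP and control libraries did not overlap for either gene within replicates 1 to 3 or within replicates 4 to 6. There r mainly sets 1 group against the other. Pearson r was 0.99 in replicates 1 to 3 and 0.96 in replicates 4 to 6 (Spearman rho 0.89 and 0.94, 6 libraries each), and 0.99 in both without the 2 libraries farthest from the median of Aqp2, which leaves 1 dDAVP library against 3 control libraries and so carries no weight. In replicates 7 to 9 it was 0.38 (rho 0.49), and -0.32 without dDAVP library 7 and control library 7. Here Aqp2 was 37.3 normalised CPM in control library 8, close to other control libraries, while Avpi1 was 488. Over all 18 libraries with set means removed r was 0.58 (rho 0.64), and 0.98 in the 12 libraries without numbers 7 to 9. With the means of each set and group removed it was 0.86 (rho 0.83). By this r Aqp2 ranked 349th of 6903 genes with a mean of at least 5 normalised CPM. Within groups, the SD of log2 Avpi1 was 2.29 (dDAVP) and 1.77 (control) in replicates 7 to 9. In the other sets it was at most 0.32. The r of 0.86 therefore rests mainly on replicates 7 to 9. Within each group of that set, Avpi1 and Aqp2 ranked the libraries in the same order. The low r of that set is thus a value across groups and not within them.

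**Figure D3:**
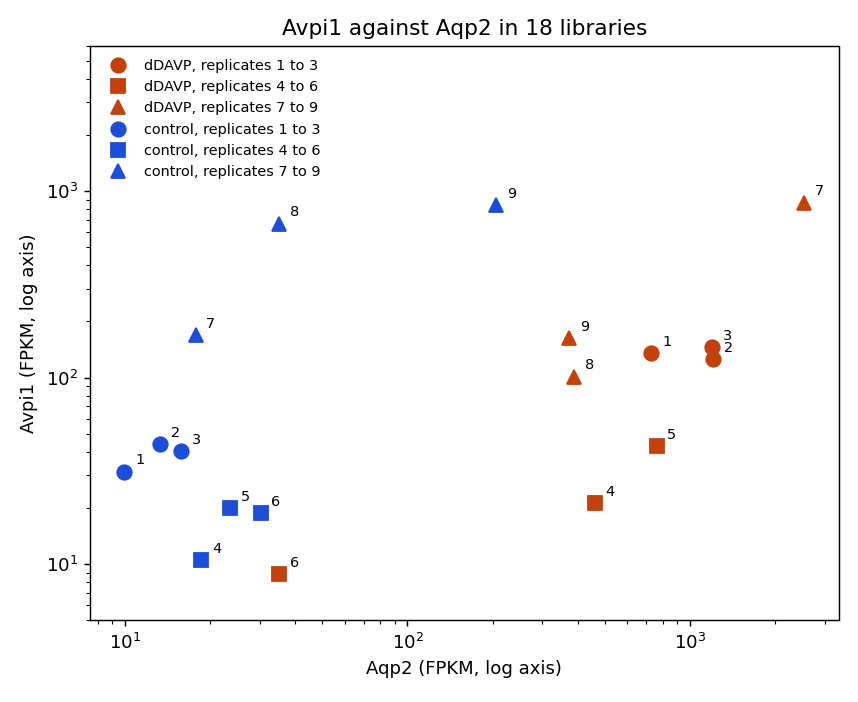
Avpi1 against Aqp2 in FPKM, both on log axes, with 1 point a library, marked by set and group and numbered by replicate. The dDAVP points of replicates 1 to 3 lie right of and above the control points, while control libraries 8 and 9 reach the Avpi1 level of dDAVP library 7 (668.5 and 843 FPKM, against 866) at 35.2 and 205 FPKM of Aqp2, against 2542 in dDAVP library 7.

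TMM factors moved with the Avpi1 levels of replicates 7 to 9. Libraries dDAVP 7, control 8 and control 9, where Avpi1 was high, had TMM factors of 1.31, 1.34 and 1.16. Libraries dDAVP 8, dDAVP 9 and control 7, where it was low, had 3.17, 2.76 and 2.32. Normalised CPM are divided by these factors, so factor and level are not independent. By library totals Avpi1 had 845, 652 and 823 CPM in dDAVP 7, control 8 and control 9. It had 98.7, 158 and 165.5 CPM in dDAVP 8, dDAVP 9 and control 7. Across 10121 genes dDAVP library 7 correlated at 0.96 with control library 8, at 0.88 with control library 9 and at 0.79 and 0.83 with dDAVP libraries 8 and 9. Control library 7 correlated at 0.85 and 0.81 with dDAVP libraries 8 and 9 and at 0.79 and 0.83 with control libraries 8 and 9. The best match of a library lay in its own group for 3 of 6 libraries of this set, 2 of 6 in replicates 4 to 6 and 5 of 6 in replicates 1 to 3. The ribosomal RNA transcript Rn45s took at most 0.00682% of counts in replicates 1 to 6 and 0.213% to 3.04% in replicates 7 to 9. It made up 0.847%, 0.784% and 3.04% in dDAVP 7, control 8 and control 9, and 0.268%, 0.213% and 2.13% in dDAVP 8, dDAVP 9 and control 7, so its shares overlapped between libraries with high and low Avpi1. Rn45s is a repeated gene, so its counts are uncertain. Summed principal cell markers ran between 322 and 3118 normalised CPM in dDAVP and between 162 and 501 in control libraries. Aqp2 made up 19.7% to 89.7% of the sum in dDAVP and 6.57% to 55.2% in control libraries. Summed leukocyte markers reached 27.5 in dDAVP and 31.9 in control libraries, with Cd3e at 0 throughout. The part of these measures in the Avpi1 values was not tested.

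Of the genes whose pattern was most like that of Avpi1, 7 are given here (Pearson r over 18 libraries, set means removed, among 6903 genes with a mean of at least 5 normalised CPM). Aqp2 was not among the closest and ranked 1191st at 0.585. The 7 were Ndufs7 (0.918), a subunit of mitochondrial complex I, Zfp628 (0.902), a zinc finger gene, and Gadd45g (0.897), a stress-induced regulator of growth arrest. They also included Sertad1 (0.897), a partner of cell cycle kinase and transcription factors, Cox17 (0.897), a copper chaperone of cytochrome oxidase, Hmga1 (0.897), an architectural chromatin protein, and Necap2 (0.896), an endocytic adaptor. All 7 had their highest dDAVP value in dDAVP library 7 and their highest control value in control library 8 or 9. Ndufs7 had 1721, 130 and 173 normalised CPM in dDAVP libraries 7 to 9, against 170, 1549 and 1050 in control libraries 7 to 9. Its groups overlapped in replicates 1 to 3, at 222, 359 and 476 in dDAVP and 202, 231 and 256 in control libraries. Within replicates 7 to 9 the 7 genes followed Avpi1 at r of 0.93 to 0.99. Within replicates 4 to 6 the range was 0.38 to 0.68, and within replicates 1 to 3 it was 0.62 to 0.83. The 7 were picked by r over these same libraries, in which Avpi1 spread most in replicates 7 to 9. Their r and their shared peaks in that set therefore belong to the choice and are no separate result.

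Without numbers 7 to 9 the order of likeness changed. In the remaining sets the dDAVP and control values of Avpi1 did not overlap by normalised CPM, so r there mainly sets 1 group against the other. Avpi1 was chosen on that contrast and on its relation to Aqp2, so these ranks are a description and no separate result. The closest genes over 12 libraries were B3gnt7 (0.985), a glycosyltransferase, Cited1 (0.981), a transcriptional coactivator, and Aqp2 (0.978), followed by Fcgbp (0.945) and Marveld1 (0.937), while Ndufs7 was 83rd at 0.736.

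The genes on either side of Avpi1 on chromosome 19 were measured in the same fits. Pi4k2a, a phosphatidylinositol 4-kinase, ends 1056 bases from the 3' end of Avpi1 on the other strand. Marveld1, a membrane protein gene on the other strand, lies 18395 bases from Avpi1. Morn4 (36898 bases) and Zfyve27 (41573 bases) are farther out, the clone 4933411K16Rik reached at most 4.18 normalised CPM, and the pseudogene Gm6937 has no value here. The log2 fold change in replicates 1 to 3 was 1.15 (SE 0.24, edgeR adjusted p = 0.0750) for Marveld1 and 1.15 (SE 0.33, adjusted p = 0.232) for Pi4k2a, against 0.35 for Zfyve27 and 0.09 for Morn4. None of the neighbours passed in any of the 5 dDAVP fits with edgeR. Marveld1 in replicates 1 to 3 did pass with the replicate number as a block (log2 fold change 1.16, SE 0.29, edgeR adjusted p = 0.0333) and with DESeq2 (adjusted p = 0.00482). Marveld1 had 68.8, 87.8 and 73.3 normalised CPM in dDAVP libraries 1 to 3, against 26.2, 34.3 and 38.3 in control libraries 1 to 3. These groups did not overlap, a separation that was not counted over all genes. In replicates 4 to 6 it had 40.6, 36.8 and 31.4 with dDAVP, against 31.0, 24.2 and 24.0 in control, and in replicates 7 to 9 it had 44.4, 56.3 and 54.0 with dDAVP, against 26.6, 54.2 and 32.9 in control. Its correlation with Avpi1 was 0.97 and 0.82 in the first pair of sets and -0.18 in replicates 7 to 9, where it did not share the high values of control libraries 8 and 9 to the same degree.

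**Figure D4:**
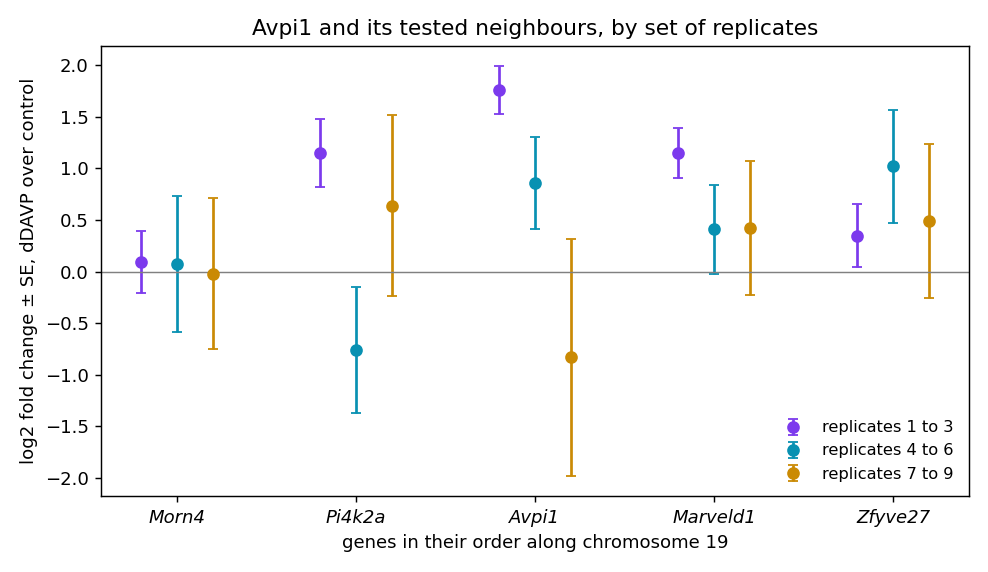
Log2 fold change, dDAVP over control, with its SE, for Avpi1 and the 4 neighbours that were tested in all fits, in their order along chromosome 19, with 1 colour for each set of replicates. Avpi1 stands, in replicates 1 to 3, at 1.76, Pi4k2a and Marveld1 at 1.15, and Morn4 at 0.09.

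Transcripts of 5 lists were read. Those of the ERK cascade, of ERK feedback and response genes and of ENaC cover pathways in which the product of Avpi1 is placed. The V2 receptor and cAMP pathway and the targets of cAMP and CREB cover vasopressin signalling. RNA levels do not measure the activity of a kinase or a channel. Of the ERK cascade (receptors, Ras, Raf, MEK and ERK), 19 of 20 members passed the filter on low counts and 0 were called by edgeR with the set as a term, where 0.079% of all genes were. No member had an unadjusted p under 0.05 in that fit, and DESeq2, limma voom and edgeR with the block also called 0. Their median log2 fold change was 0.08, against 0.02 over all genes, with 14 above and 5 below 0. Nras, a Ras GTPase and its most abundant member, had 565.5 ± 955 normalised CPM in dDAVP and 300.4 ± 455 in control libraries (SD, n = 9 each). Map2k2, which encodes the ERK kinase MEK2, had 168 ± 252 in dDAVP and 177 ± 208 in control libraries. Among feedback and response genes of ERK, 13 of 18 were tested and 0 were called by any of these tools, with 0 at an unadjusted p under 0.05 (median log2 fold change 0.15). Spry2, an inhibitor of receptor tyrosine kinase signalling, had 426 ± 921 in dDAVP and 169 ± 260 in control libraries. No member of either list was called within any of the 3 sets by edgeR, DESeq2 or limma voom. In replicates 1 to 3, 2 of 10 feedback genes had an unadjusted p under 0.05 by edgeR, against 10.5% of all genes in that fit.

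Of ENaC and its regulators, 15 of 16 were tested and 0 were called with the set as a term by edgeR, DESeq2 or limma voom, at a median log2 fold change of -0.07 and with 0 at an unadjusted p under 0.05 by edgeR. In replicates 1 to 3, 5 of 14 had an unadjusted p under 0.05, against 10.5% of all genes, and edgeR called 0. DESeq2 called 1, Cnksr3, and 1.37% of all genes (123). Nedd4, a ubiquitin ligase, had 460 ± 494 normalised CPM in dDAVP and 612 ± 685 in control libraries. Furin, a protease that cleaves ENaC, had 164 ± 249 in dDAVP and 86.4 ± 101 in control libraries. Of the V2 receptor and cAMP pathway, 14 of 20 were tested and 0 were called by edgeR with the set as a term, with 1 at an unadjusted p under 0.05 (median log2 fold change 0.37, 12 above and 2 below 0). That 1 was Akap12, which DESeq2 called, as it did 0.306% of all genes (31). Gnas, which encodes the Gs alpha subunit, had 1154 ± 1236 in dDAVP and 1267 ± 1311 in control libraries. Akap12, which encodes an anchor protein of protein kinase A, had 332.5 ± 484 in dDAVP and 87.3 ± 68.5 in control libraries (log2 fold change 1.45, SE 0.36, edgeR adjusted p = 0.308 with the set as a term).

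Targets of cAMP and CREB held the 2 members of the 5 lists that edgeR called, both in replicates 1 to 3, where 14 of 22 were tested and 0.378% of all genes were called higher and 0.0779% lower. Crem, which encodes a cAMP-responsive modulator, was higher with dDAVP by a log2 fold change of 2.36 (SE 0.43, edgeR adjusted p = 0.0322). Atf3, a stress-induced transcription factor, was lower (-2.51, SE 0.38, edgeR adjusted p = 0.0105). By limma on log2 (FPKM + 1) these were 0.907 for Crem and -0.825 for Atf3 (adjusted p = 0.0176 and 0.0324). Over all sets Crem had 4.38 ± 3.75 normalised CPM in dDAVP and 1.52 ± 1.20 in control libraries (SD, n = 9 each). Atf3 had 5.99 ± 5.54 in dDAVP and 13.5 ± 8.80 in control libraries. In replicates 4 to 6 the log2 fold changes were 2.4 (SE 0.90) for Crem and -1.34 (SE 0.65) for Atf3, and in replicates 7 to 9 they were -1.12 (SE 1.12) for Crem, of the opposite sign, and -0.94 (SE 0.74) for Atf3. With the set as a term they were 1.36 (SE 0.64, edgeR adjusted p = 0.816) for Crem and -1.51 (SE 0.38, edgeR adjusted p = 0.308) for Atf3. Both lost the call when control library 1, 2 or 3 or dDAVP library 2 was left out, at log2 fold changes of 2.02 to 2.78 for Crem and -2.64 to -2.31 for Atf3, and Crem also by library totals (adjusted p = 0.0583). In the same set edgeR with the block called 3 members, Atf3, Crem and Rgs2 (1.12% of all genes), DESeq2 called 4, these and Jun (1.37% of all genes), and limma voom called Atf3 and Crem (0.478% of all genes). In replicates 4 to 6 edgeR called 0 of 19 and DESeq2 called 1, Nr4a2 (0.279% of all genes). In replicates 7 to 9 edgeR, DESeq2 and limma voom called 0 of 19, with 0 at an unadjusted p under 0.05 by edgeR (median log2 fold change -0.11, against -0.03 over all genes). In the fit with the set as a term edgeR called 0 of 17 tested members, with 5 at an unadjusted p under 0.05, against 6.03% of all genes (median log2 fold change 0.22), and DESeq2 called 2, Atf3 and Jun (0.306% of all genes). The lists overlap in Pde4b and Pde4d.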

How the data were processed

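RNA from 18 mpkCCD libraries was sequenced, per the labels' protocols, from 20 ng of RNA as single-end reads of 50 bases. A low-input kit and a protocol for single cells are both described, and the libraries made with each are not named. The tools were STAR 2.4.0.1, SAMtools and HTSeq and the build mm10, per the submitters' processing notes. Annotation release and strand setting are not given in the sources used here. The deposited count table holds raw counts of 24111 genes. In the deposited FPKM table, FPKM are the authors' counts divided by gene length and library total, as the values show. Of the symbols, 27 had turned into dates. They stayed in the fits unnamed.

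The whole count table was fitted with edgeR 4.0.16 (quasi-likelihood test, TMM, filterByExpr, Benjamini-Hochberg, two-sided, adjusted p under 0.05) without covariates, with the set of replicate numbers as a term, and within each set. Alternatives were DESeq2 1.42.0, limma 3.58.1 with voom, limma on log2 (FPKM + 1) and log2 (FPKM + 0.1) above a filter of 0.5 FPKM, DESeq2 size factors, library totals, no filter, a filter of 1 CPM, the replicate block, and each library left out. Leaving out each set was chosen after seeing the data. Fits and permutation tests (R 4.3.3, Python 3.11.15, scipy 1.17.1) were tested on simulated data. SE is the log2 fold change over the square root of F. Avpi1, the lists and the naming rule (Avpi1, Aqp2, the 8 genes most alike, 3 neighbours on either side, called or most abundant list members) were chosen with earlier results of these data known. B3gnt7, Cited1 and Fcgbp were named after their values were seen. Of the 8 genes most alike, 1 is not reported here.

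Replicates carry the same numbers in both groups. Deviations from group means correlated between libraries of a number at 0.40 to 0.93 across genes, and at -0.71 to 0.43 once set means were removed. The labels do not say whether replicates were separate cultures, and p-values measure the spread between libraries. Libraries of a group differed beyond sampling noise in every pair (chi-square over its degrees of freedom at least 71.6).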

Additional observations from a re-analysis of the deposited data

Results flagged for a closer look

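Single libraries stood far from the other 8 of their group in 17 of 28 groups of 9 tested among Avpi1, Aqp2, the genes most like Avpi1 and its neighbours. Chance alone gives about 1 in 20 in independent groups, but these groups share the same 18 libraries, the values of Avpi1 were known when it was chosen, and the genes most alike were picked for following Avpi1, so the count is a description and is not read against that rate. dDAVP library 7 held the distant value in 11 genes. Avpi1 had 649.5 normalised CPM there, with the next dDAVP library at 203. In the same library Ndufs7 had 1721, Zfp628 63.0, Gadd45g 212, Sertad1 241, Cox17 59.4, Hmga1 27.0 and Necap2 350.0 normalised CPM. Among the neighbours of Avpi1 it held 4.18 for 4933411K16Rik, 32.8 for Morn4 and 102 for Pi4k2a.

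Among control libraries, Aqp2 stood at 252 normalised CPM in control library 9, with the next at 48.2, and Sertad1 at 416 in the same library. Control library 8 held 36.0 for Morn4, 93.5 for Pi4k2a and 54.2 for Marveld1. Control library 4 held 0.730 for 4933411K16Rik.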

How the results depend on the processing

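Avpi1 kept a positive dDAVP estimate under every alternative in replicates 1 to 3, in replicates 4 to 6 and with the set as a term, and a negative one in replicates 7 to 9. Over all libraries (-0.11) the sign turned with limma voom (0.51), FPKM (0.41 and 0.42 with pseudocounts of 1 and 0.1), the replicate block (0.78) and without numbers 7 to 9 (1.62). It also turned without dDAVP library 4, 5 or 6 (0.02 to 0.03) or control library 8 (0.22) or 9 (0.71). The cause was not tested. With 1 library left out it ran between -0.86 and 0.71, with the set term 0.44 to 0.90 (0.06, 0.53 and 1.39 without numbers 1 to 3, 4 to 6 and 7 to 9), and in the sets 1.70 to 1.89, 0.69 to 0.94 and -3.31 to -0.16. Within replicates 4 to 6 it was 0.57 with library totals and 0.34 and 0.35 by FPKM.

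Genes called over all libraries numbered 12 with DESeq2, 1 with limma voom, 2 with FPKM at either pseudocount, 1 with the block, 2 without numbers 7 to 9, and 0 to 1 with a library left out. With the set term (8) they numbered 5 with library totals, 31 with DESeq2, 4 with FPKM at either pseudocount, 1 with the block, and 0 without numbers 1 to 3 or 4 to 6 (4 to 9 with a library left out). In replicates 1 to 3 (41) they numbered 207 without a filter, 123 with DESeq2 and 101 with the block (65 higher, 36 lower), and 13 to 774 with a library left out, 774 without dDAVP library 1, 24 without dDAVP library 2, and 14, 13 and 15 without control libraries 1, 2 and 3. In replicates 4 to 6 (0) they numbered 1 with library totals, 1 without a filter, 29 with DESeq2 and 0 to 2 with a library left out. In replicates 7 to 9 (0) they numbered 7 with library totals, 30 without a filter, 94 with DESeq2, 2 with FPKM at either pseudocount and 3 with the block, and 0 to 98 with a library left out, 98 without dDAVP library 7.

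The set contrasts 4 to 6 minus 1 to 3 (-2.19 to -1.85 with a library left out) and 7 to 9 minus 4 to 6 (3.38 to 4.23) kept their calls. Leaving out 1 library at a time kept most of the high libraries of replicates 7 to 9 in the fit. The contrast 7 to 9 minus 1 to 3 (1.25 to 2.11) lost its call with limma voom (0.92) and without dDAVP library 7 or control library 1, 2, 3 or 9. The permutation differences ran between -2.06 and -1.63, 0.53 and 1.42, and 2.38 and 3.28, and the second passed with FPKM (2.19). The correlation with Aqp2 fell to 0.75 in replicates 4 to 6 by FPKM. In replicates 7 to 9 it was -0.32 without the 2 libraries farthest from the median of Aqp2 and 0.04 to 0.58 with 1 left out, 0.04 without dDAVP library 7. Over 18 libraries it was 0.98 without numbers 7 to 9 (0.50 to 0.70 with 1 left out, and 0.77 to 0.92 with group means also removed). In replicates 1 to 3 and 4 to 6 it ran between 0.99 and 1.00 and between 0.94 and 0.99. The fewest Avpi1 reads, 235 in dDAVP library 6, gave a counting half-width of 13.0%. Among Aqp2, Marveld1, Pi4k2a and the list members, the replicate block changed the calls of Aqp2 (with the set term), Marveld1 and Rgs2 and no other.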
